A study of Rattus norvegicus with 12 samples.

Results

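Fibrinogen gamma (Fgg) and alpha-1 antitrypsin (Serpina1) were examined in the lungs of rats given silica. Both genes were selected on readouts of these rats, because the study placed them among the genes that differed on day 28 and also measured their proteins. Of 1097 genes that could be named on the array, these 2 were taken. Each was read from the 1 probe, of 51255, that the part of the study's list at hand assigned to it. Any other probe for them on the array could not be named. The series holds 12 lungs of male Wistar rats on Agilent single-colour arrays, 1 array a rat, in 4 groups of 3. Silica groups had received 1 mL of 50 mg/mL silicon dioxide into the trachea and saline groups 1 mL of saline, and lungs were taken on day 14 or day 28. The titles also state doses of 50 and 0 mg/kg, and age was not stated. No rats of day 14 appear in the methods, and the protocol text of those arrays speaks of 28 days although their titles and time points say 14 days. The 3 lungs a group of day 28 were picked on histology from a larger cohort, and the whole lung was the unit, so that fewer cells of a type and less RNA per cell cannot be told apart.

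Fibrinogen gamma is one of the chains of fibrinogen, the plasma protein that thrombin cuts into fibrin, the mesh of a clot. Alpha-1 antitrypsin is a serine protease inhibitor whose main target is neutrophil elastase, and people who lack it are prone to emphysema. Hepatocytes make most of both proteins, both are released into plasma in the acute-phase response to cytokines such as interleukin-6, and lung epithelium and macrophages can also make them. A lung can therefore hold the proteins from plasma, whereas the arrays measured only the RNA in the tissue.

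The 60-base oligonucleotides that stood for the genes are shown because every value below was read from them. Both are written 5′ to 3′ from the array's own annotation, with lower case throughout.
Fgg (A_43_P11464, transcript NM_012559, chromosome 2): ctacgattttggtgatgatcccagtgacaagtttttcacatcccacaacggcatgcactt
Serpina1 (A_44_P524718, transcript NM_022519, chromosome 6): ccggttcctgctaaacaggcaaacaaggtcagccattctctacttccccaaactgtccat
The Fgg oligonucleotide held 45.0% G and C and that of Serpina1 50.0%. Each was spotted once and was well above background on all 12 arrays. In the RefSeq gene order of the rat assembly GRCr8, Fgg lies beside Fga and Fgb, which encode the other fibrinogen chains and are not analysed here. Serpina1 lies among related serpins, with Serpina1fl1 and Serpina11 on either side, and how far these cross-hybridise with its oligonucleotide was not tested.

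Fgg signal stood higher in silica lungs than in saline lungs on both days. On day 14, the normalized log2 signals were 10.07, 9.49 and 9.77 in saline rats 1 to 3 and 10.10, 11.24 and 10.93 in silica rats 1 to 3. Silica rats 2 and 3 were clearly above the saline rats, while silica rat 1 stood just above saline rat 1, so that the groups did not overlap. The means were 10.76 ± 0.59 (SD, n = 3) with silica and 9.78 ± 0.29 (SD, n = 3) with saline, a difference of 0.98 on the log2 scale (1.98-fold, SE 0.30, 95% confidence interval 0.28 to 1.69). In limma's moderated test over all probes the adjusted p was 0.085, so Fgg was not called at day 14. Silica was higher in 9 of 9 pairs of rats, and the two-sided exact permutation test gave p = 0.1, the smallest that 3 against 3 allows. The share of all probes whose groups separate this fully was not counted. An unadjusted p under 0.05 in limma was reached by 9134 of 33615 probes, so a separation like that of Fgg is not particular to it. The call turned on silica rat 1: without it the difference was 1.30 and the adjusted p from limma 0.024.

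On day 28, the contrast on which Fgg was chosen, the log2 signals were 9.42, 10.05 and 10.07 with saline and 10.96, 11.31 and 10.60 with silica. Again no silica rat fell among the saline rats, which selection on this contrast favours. The means were 10.96 ± 0.36 (SD, n = 3) and 9.85 ± 0.37 (SD, n = 3), a difference of 1.11 or 2.16-fold, which lies just inside the 2-fold limit of that selection and is given without a test. Of the day 28 arrays, the 3 silica arrays and saline rat 1 shared a slide, and within that slide the difference was 1.53, since saline rat 1 was the lowest.

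Serpina1 signal stood lower in silica lungs, with a wide spread among rats. On day 14, the log2 signals were 9.82, 8.07 and 10.02 in saline rats 1 to 3 and 7.01, 8.35 and 8.59 in silica rats 1 to 3. Saline rat 2 lay below silica rats 2 and 3, so the groups overlapped. The means were 7.98 ± 0.85 (SD, n = 3) with silica and 9.31 ± 1.07 (SD, n = 3) with saline, a difference of -1.32 on the log2 scale (2.5-fold lower, SE 0.59, 95% confidence interval -2.72 to 0.07). The adjusted p from limma was 0.20, and Serpina1 was not called. Silica was higher in 2 of 9 pairs of rats, and the two-sided exact permutation test gave p = 0.3. Leaving out 1 array at a time gave differences between -1.96, without saline rat 2, and -0.83, without silica rat 1, and adjusted p from limma between 0.099 and 0.45.

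On day 28, again the contrast that chose the gene, the Serpina1 log2 signals were 9.94, 10.17 and 10.25 with saline and 7.11, 8.35 and 9.31 with silica. All saline rats stood above all silica rats, which selection on this contrast favours. The saline rats were close together whereas the silica rats spread over more than 2 log2 units. The means were 8.26 ± 1.1 (SD, n = 3) and 10.12 ± 0.16 (SD, n = 3), a difference of -1.86 or 3.63-fold lower, given without a test.

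**Figure D1:**
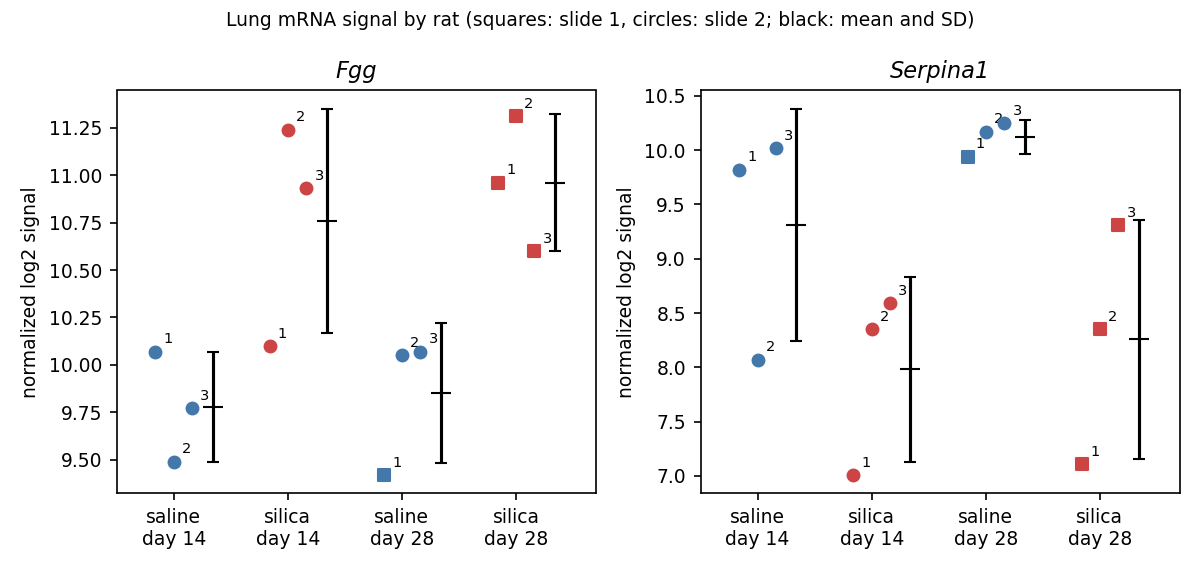
Normalized log2 signal of Fgg (left) and Serpina1 (right) in each rat, by group, with the rat's number beside its point and the group mean and SD in black. Squares are arrays of slide 1 and circles arrays of slide 2. Fgg silica points lie above the saline points of their day, whereas Serpina1 of saline rat 2 on day 14, at 8.07, lies among the silica points. Day 28 chose both genes, and the share of all probes whose groups separate was not counted.

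With all 12 arrays normalized together, the order of the Fgg means was silica day 28 (10.95 ± 0.36), silica day 14 (10.76 ± 0.58), saline day 28 (9.84 ± 0.37) and saline day 14 (9.78 ± 0.29). The silica groups differed from each other by less than their SD, as did the saline groups. For Serpina1 the order was saline day 28 (10.11 ± 0.16), saline day 14 (9.31 ± 1.08), silica day 28 (8.26 ± 1.09) and silica day 14 (7.97 ± 0.87). Neighbours in that order differed by no more than the larger of their SDs. All silica arrays of day 28 were on slide 1 and all arrays of day 14 on slide 2, so day and slide cannot be told apart among silica rats. Whether the silica difference changed between the days was not tested, since day 28 chose the genes.

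For reference, 1647 of 33615 probes tested on day 14 were called, with an adjusted p of at most 0.05 in limma and at least a 2-fold change. That is 4.9% of probes, 2.59% higher and 2.31% lower with silica. Among the 1232 named probes tested, all picked by the study for their day 28 difference, 41.3% were called, 25.1% higher and 16.2% lower, and their median difference was 0.42 against -0.01 over all probes. Fgg and Serpina1 were thus both among the named probes that were not called. These background counts depended on the saline arrays, and were 587, 281 and 304 probes without saline rats 1, 2 and 3 respectively. Correlations between arrays of a group ran from 0.966 to 0.989.

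Genes that act with fibrinogen in clotting and its dissolution went both ways on day 14. Of 39 genes in a list of clotting and fibrinolysis, 9 others than Fgg could be named and 8 were tested, of which 2 were called higher and 2 lower (median difference -0.02). The genes of this and every list below come from the named probes, of which 41.3% were called on day 14, 25.1% higher and 16.2% lower. No list count was tested against that share. Plau, the urokinase that activates plasminogen, was 1.11 higher on the log2 scale (SE 0.19, adjusted p from limma 0.022), and its receptor Plaur was 1.20 higher (SE 0.15, adjusted p from limma 0.0095). Thbd, the endothelial thrombomodulin that turns thrombin toward anticoagulation, was lower (difference -1.34, SE 0.31, adjusted p from limma 0.042). Tfpi, the inhibitor of the tissue factor pathway, was also lower (difference -1.21, SE 0.23, adjusted p from limma 0.026). The highest value in the list belonged to Tfpi2, a related inhibitor, at 1.43 (SE 0.38, adjusted p from limma 0.057), which was not called. Tfpi2 was dim in saline rats of day 14, with a mean log2 signal of 4.07. It stood clear of background on 10 arrays over both days, so the size of its difference is uncertain. F10, the clotting factor X, was well above background on 4 arrays only and was not tested. None of the 8 was called without saline rat 2 or without saline rat 3, and 5 were without silica rat 2. With silica rat 3 left out 1 was called and with silica rat 1 left out 2.

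Among acute-phase plasma proteins, Serpina1 was the only named gene of the list with a negative difference on either day. Of 30 genes in the list, 5 others than Fgg and Serpina1 were named and tested, 2 were called higher and none lower, and the median difference was 1.22. Lcn2, the iron-sequestering lipocalin of neutrophils and epithelium, was 4.40 higher (SE 0.32, adjusted p from limma 0.0023). Cd14, the co-receptor for bacterial lipopolysaccharide, was 1.87 higher (SE 0.34, adjusted p from limma 0.024). Hpx, the haem-binding hemopexin, had the smallest difference of the 5, at 0.89 (SE 0.30, adjusted p from limma 0.10), close to the 0.98 of Fgg. Without any 1 of the saline rats 1 gene was called, and without silica rat 1 there were 3.

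Among inhibitors of proteases, and elastases, Serpina1 and Timp3 were the named genes with negative differences, on both days. Of the 36 genes listed, 8 others than Serpina1 were named and tested, of which 2 were called higher and none lower (median difference 1.04). Serping1, the C1 inhibitor, was 1.43 higher (SE 0.28, adjusted p from limma 0.027). Serpinb1a, an intracellular inhibitor of neutrophil proteases, was 1.1 higher (SE 0.22, adjusted p from limma 0.029). Mmp9, a gelatinase of neutrophils and macrophages, had the highest difference at 1.92 (SE 0.58, adjusted p from limma 0.081), and Timp3, an inhibitor of metalloproteinases, the lowest of the 8 at -0.78 (SE 0.26, adjusted p from limma 0.11). Neither was called, and the difference of Serpina1, -1.32, lay below that of Timp3. No gene of the 8 was called when saline rat 1, 2 or 3 was left out, 1 without silica rat 1 or 3, and 3 without silica rat 2.

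Complement, which shares activators and inhibitors with the clotting cascade, was tested for 12 named genes of 43. On day 14, 7 were called higher and 1, the adhesive plasma protein Vtn, lower (median difference 1.54). Of those called higher, Vsig4 stood clear of background on only 8 arrays over both days. Its mean log2 signal in saline rats of day 14 was 3.3, so the size of its difference is uncertain. Vsig4 passed the background filter only through silica rats, where it is high, so its call adds no separate support to the count. Without saline rats 1, 2 and 3 the called complement genes numbered 4, 2 and 4. A list of the interleukin-6 family and its signalling, through which the liver is driven to make acute-phase proteins, also held Tnf and Il1r2, which are outside that family. Of its 27 genes, 5 were named and tested. Osm, a cytokine of that family, was 1.80 higher (SE 0.38, adjusted p from limma 0.034), Tnf 1.56 higher (SE 0.17, adjusted p from limma 0.0069), and Lifr, a receptor of the family, lower (difference -1.18, SE 0.23, adjusted p from limma 0.027). Osm was dim in saline rats of day 14, with a mean log2 signal of 4.1, and stood clear of background on 10 arrays over both days. Without any 1 saline rat, 1 gene of that list was called in place of 3.

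**Figure D2:**
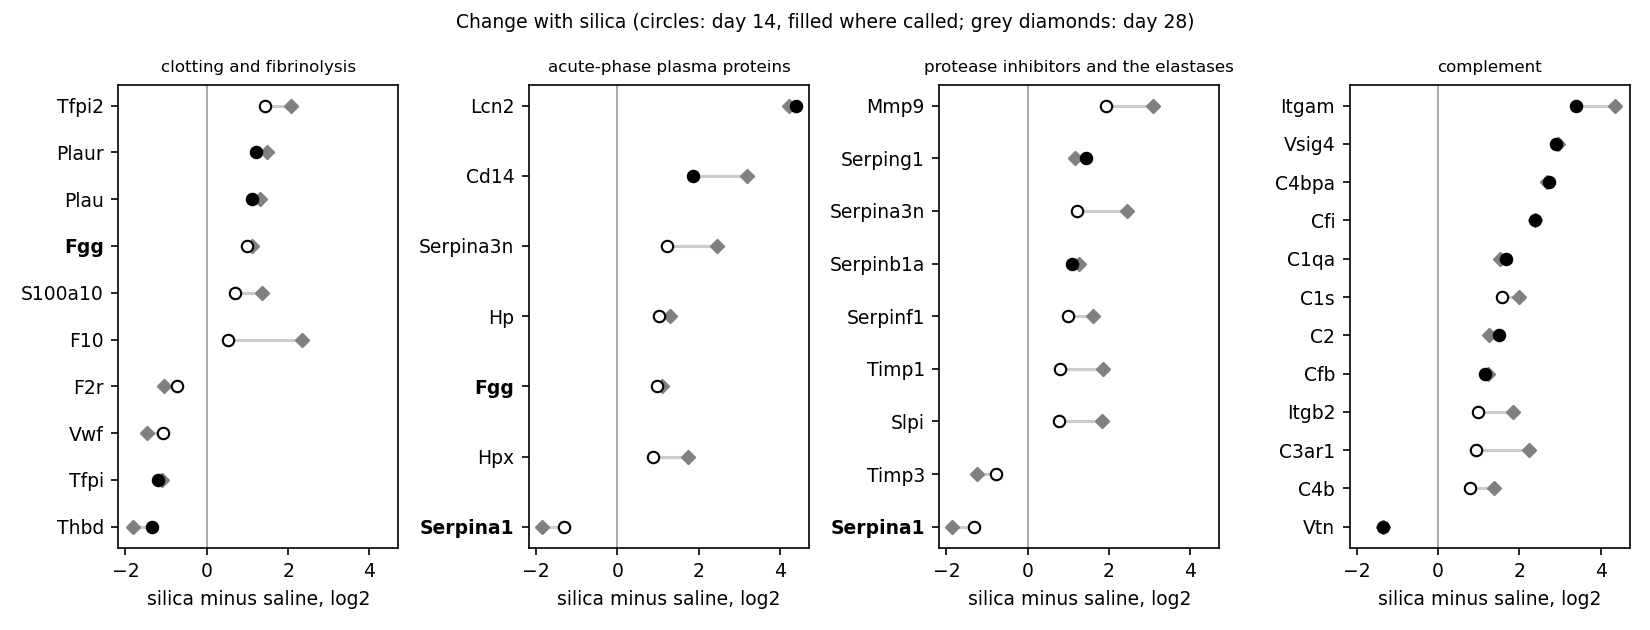
Silica minus saline on the log2 scale for each named gene of 4 lists on day 14 (circles, filled where called) and day 28 (grey diamonds, the contrast that chose all these genes), with Fgg and Serpina1 in bold. F10 on day 14 was not tested. Serpina1 is at the bottom of its 2 lists on both days, at -1.32 and -1.86, while Fgg stands at 0.98 and 1.11.

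The promoter of Fgg is shown because fibrinogen genes are textbook targets of STAT3, which interleukin-6 signals through. The window is chr2:170652833-170653132, plus strand, of GRCr8 as RefSeq annotates it, and its 250 bases before the annotated start are given 5′ to 3′ with each CTGGGAA, a core of the interleukin-6 response element, in capitals. The annotated start lies inside the RefSeq gene record, so positions are counted from the first base of the window.
Fgg promoter: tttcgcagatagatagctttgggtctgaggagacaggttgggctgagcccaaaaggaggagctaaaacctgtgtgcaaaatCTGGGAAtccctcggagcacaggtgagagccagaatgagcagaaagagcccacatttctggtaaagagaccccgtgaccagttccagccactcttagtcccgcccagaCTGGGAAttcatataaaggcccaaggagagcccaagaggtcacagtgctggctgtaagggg
CTGGGAA, searched on both strands, occurred 2 times in the 300 bases, from bases 82 and 190, and TATAAA 1 time, from base 201. Of 33469 rat promoters of that length, 11.3% held CTGGGAA, 0.753% held it 2 or more times, and 14.2% held TATAAA. The window of Serpina1 in the same table held neither string. These are matches of letters, and binding was not measured.

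The genes whose signals ran most like each member were ranked by Pearson r over the 12 arrays among 831 named genes. For Fgg they were Cfb (r = 0.94), Enpp3 (r = 0.93) and Cyp51 (r = 0.92). Cfb is complement factor B, Enpp3 an ecto-nucleotide pyrophosphatase and Cyp51 the lanosterol demethylase of cholesterol synthesis. After group means were removed the values were 0.90, 0.79 and 0.85, but the genes were picked for their r over these same arrays. The order of rats did not match in every group. In silica rats 1 to 3 of day 28, Fgg was 10.96, 11.31 and 10.59. There Cfb was 11.52, 11.49 and 11.35, Enpp3 10.12, 9.73 and 9.52, and Cyp51 8.16, 8.26 and 8.24. Silica rat 1 of day 14, lowest of the silica rats for Fgg at 10.11, was also lowest for Cfb at 10.96 and for Enpp3 at 9.02. On day 14 the difference was 1.15 for Cfb (SE 0.20, adjusted p from limma 0.021), 1.46 for Cyp51 (SE 0.23, adjusted p from limma 0.017) and 0.88 for Enpp3 (SE 0.27, adjusted p from limma 0.088).

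For Serpina1 the most similar genes were Spock2 (r = 0.96), a proteoglycan, Aqp5 (r = 0.95), a water channel of alveolar type 1 cells, and Myo5b (r = 0.94), a motor of vesicle transport in epithelium. After group means were removed, r was 0.93, 0.90 and 0.92. In each silica group the rat numbered 1, a different animal on each day, was lowest for all 3 genes and for Serpina1. Its Aqp5 signal was 10.58 on day 14 and 10.84 on day 28. Saline rat 2 of day 14, which had little Serpina1, had the lowest saline values of that day for Spock2 (12.02 against 13.08 and 12.96) and Aqp5 (12.05 against 12.39 and 12.65). None of the 3 was called on day 14, with differences of -1.64 (Spock2, adjusted p from limma 0.095), -0.96 (Aqp5, 0.14) and -0.43 (Myo5b, 0.34). All points share arrays, scaling and silica exposure, and the genes were taken for their high r, so no p is attached. Fgg and Serpina1 themselves had r = -0.43 over the 12 arrays and 0.41 after group means were removed.

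**Figure D3:**
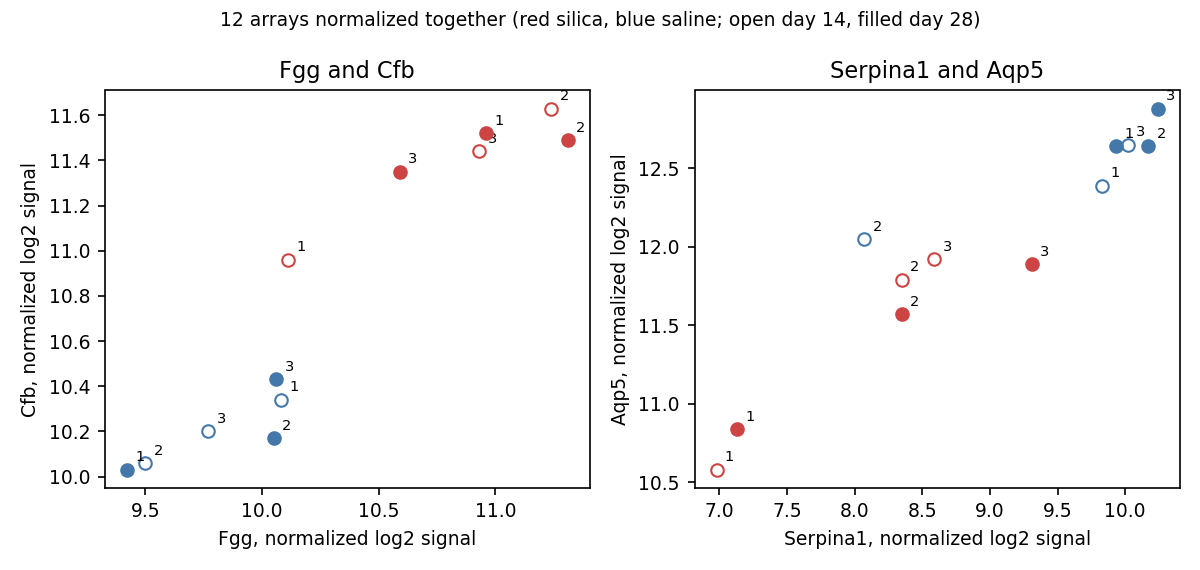
Log2 signals of Fgg against Cfb (left) and Serpina1 against Aqp5 (right) over 12 arrays normalized together, with the rat's number beside each point. Silica is red, saline blue, day 14 open and day 28 filled. In each silica group the rat numbered 1, a different animal on each day, is lowest in Serpina1 and Aqp5. The open blue point of rat 2, at 8.07, is the lowest saline value of Serpina1.

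Markers of other cells moved with silica beside both genes, and their part in the results was not tested. Of 9 alveolar type 1 markers 5 were named, including Aqp5, and their summed linear signal on day 14 was 16500 to 19600 in saline and 4460 to 10900 in silica rats. On day 28 the sums were 19800 to 23200 and 5010 to 9930. Every named marker here was picked by the study for its day 28 difference, so the gap on day 28 follows from that selection. Only 1 of the 5, Cav1, was called lower on day 14, and none was when any 1 saline rat or silica rat 3 was left out. For 8 of 13 endothelial markers the day 14 sums were 32800 to 40500 and 9830 to 20800, with 6 called lower, Thbd among them (none when any 1 saline rat was left out). For 7 of 12 macrophage markers the sums were 2450 to 3950 with saline and 21800 to 33300 with silica, with 6 called higher. Among those 6, Msr1 stood clear of background on only 7 arrays and Ctsk on only 6, over both days. Their mean log2 signals in saline rats of day 14 were 2.93 and 2.05, so the size of their differences is uncertain. Both passed the background filter only through silica rats, where they are high, so their calls add no separate support to the count. The 2 red blood cell markers named of 11 gave 18000 to 36700 and 5750 to 11800. Of 7 club cell markers 2 were named, with sums of 357 to 668 and 2040 to 4380, but they went opposite ways on day 14, Bpifb1 being called higher (difference 3.83, adjusted p from limma 0.0076, and not called without saline rat 2) and Cyp2f4 having a difference of -1.19 that was not called (adjusted p from limma 0.17). The 2 hepatocyte markers named of 13, Cyp2e1 and Hpx, summed to 190 to 327 and 143 to 198. These also went apart, with Cyp2e1 called lower on day 14 (difference -1.31, adjusted p from limma 0.030, and not called when any 1 array was left out) and Hpx at 0.89, as given above. No marker of alveolar type 2 cells or neutrophils was among the named genes, so these cells were not followed here.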

How the data were processed

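Per the labels, lung RNA was labelled with Cy3 and hybridised to Agilent arrays. The authors deposited spot intensities from Feature Extraction 10.7.1.1, already corrected for background, and a table of log2 signals normalized between arrays. Of 62972 spots per array, 1439 were controls. Between 60.5% and 69.5% of probes were well above background, none was saturated, and the number of arrays limits the precision. Intensities were taken to log2, quantile normalized within each day's 6 arrays (all 12 for likeness, marker sums and the order of levels) and kept where well above background on all 3 arrays of a group. Day 14 was tested with limma 3.58.1 in R 4.3.3 with Benjamini-Hochberg adjustment. The fit was also run on simulated data with independent noise and changes larger than those of Fgg and Serpina1. That run cannot tell how well changes of their size are found. Names came from the part of the study's list of differential genes that was at hand (1275 probes), which was chosen on day 28. Where several of these probes named a gene, the brightest over the 12 arrays stood for it, and the others are not given. Tables and plots used Python 3.11.15 with pandas 2.3.3 and matplotlib 3.10.9. The text names the members, the 3 genes most like each, and, of the clotting, acute-phase and protease inhibitor lists, the genes called at day 14 and those of largest and smallest difference. Other genes, from the complement, interleukin-6 and marker lists, were named after their values were seen. The members and lists were chosen with earlier results of these data known. Alternatives covered the normalization, background correction, filter, test, slide and replicates. Protein values, and the authors' fold changes and p-values, were not analysed here.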

Additional observations from a re-analysis of the deposited data

How the results depend on the processing

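Fgg kept a positive and Serpina1 a negative difference under every alternative run, with adjusted p on day 14 from 0.024 to 0.23 and from 0.099 to 0.45, and only Fgg without silica rat 1 was called. Leaving out 1 array gave 0.75 to 1.30 for Fgg (1.30 without silica rat 1) and -1.96 to -0.83 for Serpina1 on day 14, and 0.90 to 1.29 and -2.39 to -1.28 on day 28. Fgg on day 28 was 1.53 with slide as a block and 1.53 within slide 1, which both rest on 1 saline array. Probes called on day 14 (1647, of them 509 named) numbered 708 and 266 with normexp background, 396 and 121 without a filter on dim probes, and 1 and 1 with the methods' t-test after Benjamini-Hochberg (1848 and 565 unadjusted), and leaving out 1 array gave 281 to 2338 and 95 to 615. With the replicate block the values were 0.98 (adjusted p from limma 0.13) for Fgg, -1.32 (0.20) for Serpina1, 1534 probes and 466 named probes. Same-numbered arrays of day 14 had correlations of deviations of 0.02, -0.17 and 0.06, and the other pairs from -0.21 to 0.18. With so few arrays these values cannot show whether same-numbered samples shared more than a number. The counts of called genes in lists without 1 array were chosen after seeing the data. Of the genes most like each member, 75th percentile scaling kept 3 for Fgg and 2 for Serpina1. The cause of these changes was not tested.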

Other observations

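Ranked on deviations from group means alone, 1 of 3 genes most like each member was the same as over the 12 arrays. For Fgg these were Cfb (r = 0.90), Fxyd1 (0.89), a regulator of the sodium pump, and Igfbp5 (0.88), a binding protein of insulin-like growth factors. Fxyd1 and Igfbp5 were lower with silica on day 14, by differences of -0.75 (SE 0.18, adjusted p from limma 0.043, under 2-fold) and -1.39 (SE 0.31, adjusted p from limma 0.037), while Fgg differed the other way. For Serpina1 they were Clstn2 (0.95), Sptan1 (0.94) and Spock2 (0.93), and Clstn2 was lower on day 14 (difference -1.63, SE 0.27, adjusted p from limma 0.020).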
